A study of Drosophila melanogaster with 8 samples.

Results

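The cytochrome P450 genes of Drosophila melanogaster were followed in larval midguts of the third instar in 4 Pngl genotypes. Members were all genes with a Cyp symbol made of a family number, subfamily letters and a gene number, with the cyclophilins left out, and 82 of the 17713 counted genes fitted. Clans were set by family number: 32 genes belong to the CYP4 clan, 22 to the CYP6 family, 15 to other families of the CYP3 clan, 4 to the CYP2 clan and 9 to the mitochondrial clan. A further annotated member, Cyp6a21, was not analysed here.

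RNA was sequenced 96 h after egg laying from midguts of males and females mixed, in 2 libraries per genotype, and all genotypes carry y w. Pngl-/- larvae are homozygous for the null allele Pngl[ex14]. Pngl+/- larvae carry Pngl[ex14] over a second chromosome labelled CyoKr>GFP, a balancer. Pngl Dp/+ larvae are homozygous for Pngl[ex14] with the genomic transgene PBac{Pngl[wt]Ch322-3O13}VK27, given by the study as 1 copy, and the sources differ on its insertion site. The y w larvae are wild type for Pngl. Pngl encodes the fly N-glycanase, a cytosolic enzyme that removes N-linked sugars from misfolded glycoproteins. The labels give 40 pooled midguts, the methods a smaller pool. Only Pngl+/- carries the balancer and only Pngl Dp/+ the transgene, so that effects of Pngl and of these chromosomes cannot be told apart in comparisons with those genotypes. The y w larvae alone lack a chromosome with Pngl[ex14]. In comparisons with y w, effects of Pngl and of any other differences of that chromosome or its stock cannot be told apart either.

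Totals ran between 20414011 and 28382919 counts per library. Pngl mRNA itself was 58.3 and 56.7 CPM (counts per 1000000 library counts after TMM scaling) in the libraries labelled Pngl-/-, 45.0 and 41.5 in Pngl+/-, 21.1 and 20.7 in Pngl Dp/+, and 33.6 and 31.4 in y w, so it does not set the null apart by loss of its mRNA and Pngl-/- below means the libraries so labelled. All 10 midgut enterocyte markers were detected, with sums of 45030 to 47070 CPM in Pngl-/-, 54260 to 56510 in Pngl+/-, 48340 to 51420 in Pngl Dp/+ and 38650 to 42570 in y w. The protease gene Jon65Aiv led these sums, with 23650 and 22470 CPM in Pngl-/-, and single markers moved apart from them. In Pngl-/-, 6 of the 10 rose and none fell against y w (beside 17.9% and 24.4% of all tested genes). Against Pngl+/-, 3 rose and 1 fell (beside 7.58% and 13.1%), as against Pngl Dp/+ (beside 12.1% and 22.2%). The 3 that rose against every control were Amy-p, LManVI and mex1, of which mex1 had 526.8 and 541.6 CPM in Pngl-/-, 252.1 and 243.0 in Pngl+/-, 222.2 and 230.0 in Pngl Dp/+ and 271.1 and 263.8 in y w. Other tissues were present too. The 7 fat body markers summed to 24670 to 24750 CPM in Pngl-/-, 51320 to 53610 in Pngl+/-, 34320 to 35630 in Pngl Dp/+ and 31100 to 31470 in y w. The 6 muscle markers summed to 3477 to 3531 CPM in Pngl-/-, 3422 to 3472 in Pngl+/-, 6382 to 6433 in Pngl Dp/+ and 6181 to 6343 in y w. The 6 salivary gland markers summed to 3569 to 3696 CPM in Pngl-/-, 6333 to 6450 in Pngl+/-, 6839 to 6964 in Pngl Dp/+ and 3808 to 3878 in y w. These sums too were led by a few abundant genes, and single markers moved apart from them. Against y w, 4 of the 7 fat body and 3 of the 6 muscle markers fell in Pngl-/- and none rose. Of the 6 salivary gland markers, 2 fell and 1 rose (beside 24.4% and 17.9% of all tested genes). Fbp2 of the fat body had 51.1 and 56.8 CPM in Pngl-/- and 1249 and 1206 in y w. Lsp1gamma, of the same list, had 12820 and 12690 CPM in Pngl-/- and 11420 and 11330 in y w. None of the markers was at 0 in all libraries. In such bulk samples fewer cells of a type and less RNA per cell cannot be told apart.

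Cytochromes P450 are haem enzymes that add an oxygen atom to fatty acids, sterols, hormones and foreign compounds. Microsomal P450s of the CYP2, CYP3 and CYP4 clans sit in the endoplasmic reticulum and draw electrons from the P450 reductase Cpr and cytochrome b5, whereas mitochondrial P450s use a ferredoxin and its reductase. In insects the CYP6 and CYP9 families and the mitochondrial CYP12 family include many enzymes of insecticide and plant toxin breakdown, the CYP4 clan includes fatty acid and hydrocarbon enzymes, and the midgut, fat body and Malpighian tubules are the main sites of detoxification.

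Of the 82 members, 59 (72.0%) reached 5 CPM in at least 2 libraries and were tested, against 43.3% of all genes. The tested members were 20 of the CYP4 clan, 17 of the CYP6 family, 12 of the other CYP3-clan families, 3 of the CYP2 clan and 7 of the mitochondrial clan. For 47 of the 59, a library of every genotype reached that level before scaling. Cyp313a3 reached it only in Pngl Dp/+. Cyp305a1 and Cyp6a20 reached it only in Pngl-/- and Pngl Dp/+, Cyp313a5 only in Pngl+/- and Pngl Dp/+, and Cyp4c3, Cyp4g1, Cyp18a1 and Cyp313b1 only in Pngl Dp/+ and y w. Cyp4e3, Cyp4p2, Cyp6a17 and Cyp6w1 reached it in the 3 controls and not in Pngl-/-. For all members that missed it in some genotype, calls as higher in the genotypes that reached it were favoured by the filter. The 23 untested members never exceeded 5.67 CPM, and Cyp313a1 had no count in any library. Among the untested were Cyp6t3, an ecdysteroid synthesis gene of the prothoracic gland, Cyp4d21, a gene of male courtship, and Cyp301a1, a cuticle gene. The members just under the limit were Cyp6a22, with 3.12 and 3.38 CPM in Pngl-/-, 5.67 and 5.31 in Pngl+/-, 4.51 and 4.05 in Pngl Dp/+ and 2.94 and 2.38 in y w, and Cyp4g15, with 2.86 and 2.53 CPM in Pngl-/-, 4.30 and 4.88 in Pngl+/-, 2.79 and 3.28 in Pngl Dp/+ and 3.66 and 3.46 in y w.

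A few abundant genes made up a large part of the midgut P450 pool. Over all libraries the highest level per exon length was that of Cyp6a23, a CYP6 enzyme. It had an RPKM (CPM per kilobase of exon) of 271 in Pngl-/-, 144 in Pngl+/-, 372 in Pngl Dp/+ and 539 in y w. Cyp9f2, Cyp9b2, Cyp12a4 and Cyp6a2 followed. The 5 most abundant members by CPM made up 44.8% and 44.6% of the summed P450 level in Pngl-/-, 44.8% and 44.3% in Pngl+/-, 47.4% and 47.9% in Pngl Dp/+ and 56.5% and 56.2% in y w. The order among them differed between genotypes: Cyp6a23 ranked first by RPKM in Pngl-/-, Pngl Dp/+ and y w, whereas Cyp9f2 ranked first in Pngl+/-, at 304.8 RPKM against 144 RPKM for Cyp6a23.

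The makeup of the pool by clan differed between genotypes. All members together summed to 4017 and 3994 CPM in Pngl-/-, 3252 and 3154 in Pngl+/-, 3790 and 3966 in Pngl Dp/+ and 3804 and 3725 in y w. Their share of all gene counts, which uses no TMM factor, was 0.350% and 0.351% in Pngl-/-, 0.289% and 0.280% in Pngl+/-, 0.420% and 0.439% in Pngl Dp/+ and 0.438% and 0.421% in y w, so the order of Pngl-/- and y w turns with the scaling. The mitochondrial clan summed to 811 and 823 CPM in Pngl-/-, 549 and 534 in Pngl+/-, 533 and 549 in Pngl Dp/+ and 360 and 356 in y w. Pngl-/- was thus highest and y w lowest, with Pngl+/- and Pngl Dp/+ overlapping between them. Of the 10 enterocyte markers, Amy-p, LManVI and mex1 also rose in Pngl-/- against every control, and none of these was lowest in y w. Myo31DF followed the order of the mitochondrial sum, though in Pngl-/- it was called only against y w. It had 212.2 and 220.9 CPM in Pngl-/- and 137.6 and 139.5 in y w. Pngl+/- had 175.0 and 168.1 CPM of it and Pngl Dp/+ 171.2 and 172.4. The levels of alphaTry and betaTry and the sum of all enterocyte markers were also lowest in y w. Jon65Aiii fell against Pngl+/- and Pngl Dp/+, and the sum of all enterocyte markers was highest in Pngl+/-, as given above. The part of these markers in the result was not tested. The CYP6 family was lowest in Pngl+/-, with 1247 and 1229 CPM in Pngl-/-, 729 and 704 in Pngl+/-, 1402 and 1492 in Pngl Dp/+ and 1537 and 1498 in y w. The few CYP2-clan genes summed to 68.8 and 66.3 CPM in Pngl-/-, 37.8 and 40.4 in Pngl+/-, 43.9 and 45.0 in Pngl Dp/+ and 28.5 and 26.9 in y w. With 2 libraries per genotype the sums were not tested.

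**Figure D1:**
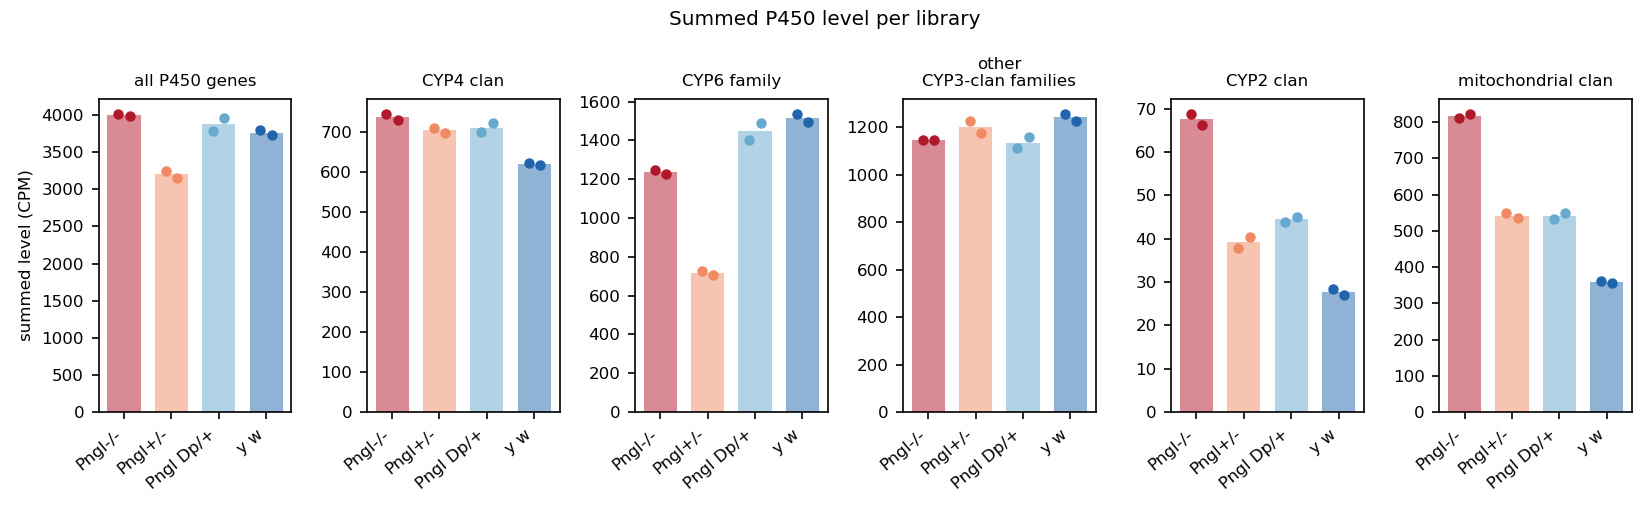
Summed level of the P450 genes per library, in CPM on an axis from 0 that differs between panels, for all 82 members and for each clan. Bars are genotype means (n = 2 libraries) and points the libraries. The mitochondrial sum was highest in Pngl-/- (811 and 823 CPM) and lowest in y w (360 and 356 CPM), and the CYP6 sum lowest in Pngl+/- (729 and 704 CPM).

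P450 genes differed between the null and each control in both directions, and they differed among the controls as well. A gene was called where its fold change reached 1.5 and its adjusted p, from the edgeR quasi-likelihood test over all 7665 tested genes, did not exceed 0.05. Against y w, 50.8% of the tested members were called in Pngl-/- beside 42.3% of all tested genes: 17 rose (28.8% beside 17.9% of all tested genes) and 13 fell (22.0% beside 24.4%). Against Pngl+/-, 45.8% were called beside 20.7%: 16 rose (27.1% beside 7.58%) and 11 fell (18.6% beside 13.1%). Against Pngl Dp/+, 49.2% were called beside 34.3%: 13 rose (22.0% beside 12.1%) and 16 fell (27.1% beside 22.2%). These 3 comparisons share the Pngl-/- libraries. The median absolute log2 fold change of the members was 0.60, 0.52 and 0.58 in the 3 comparisons in that order, and that of all tested genes 0.48, 0.27 and 0.41. The share of rises among the called members depended on the scaling. Against y w it was 56.7%, 32.3% without composition normalization and 68.4% with TMM factors from all genes. Against Pngl Dp/+ it was 44.8%, 20.7% and 58.1% under the same settings, and without a filter on low counts it was 69.0% against y w.

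Among the controls, 57.6% of the tested members were called in Pngl+/- against y w beside 30.6% of all tested genes: 18 rose (30.5% beside 13.0% of all tested genes) and 16 fell (27.1% beside 17.5%). In Pngl Dp/+ against y w, 45.8% were called beside 12.5%: 20 rose (33.9% beside 6.78%) and 7 fell (11.9% beside 5.68%). In Pngl Dp/+ against Pngl+/-, 37.3% were called beside 21.9%: 16 rose (27.1% beside 14.0%) and 6 fell (10.2% beside 7.91%). Without composition normalization, 33.3% of the calls in Pngl+/- against y w were rises instead of 52.9%, and 93.5% of those in Pngl Dp/+ against Pngl+/- instead of 72.7%. Without a filter on low counts the share in Pngl Dp/+ against Pngl+/- was 60.7%. The median absolute log2 fold change in Pngl Dp/+ against y w was 0.51 for the members and 0.20 for all tested genes.

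**Figure D2:**
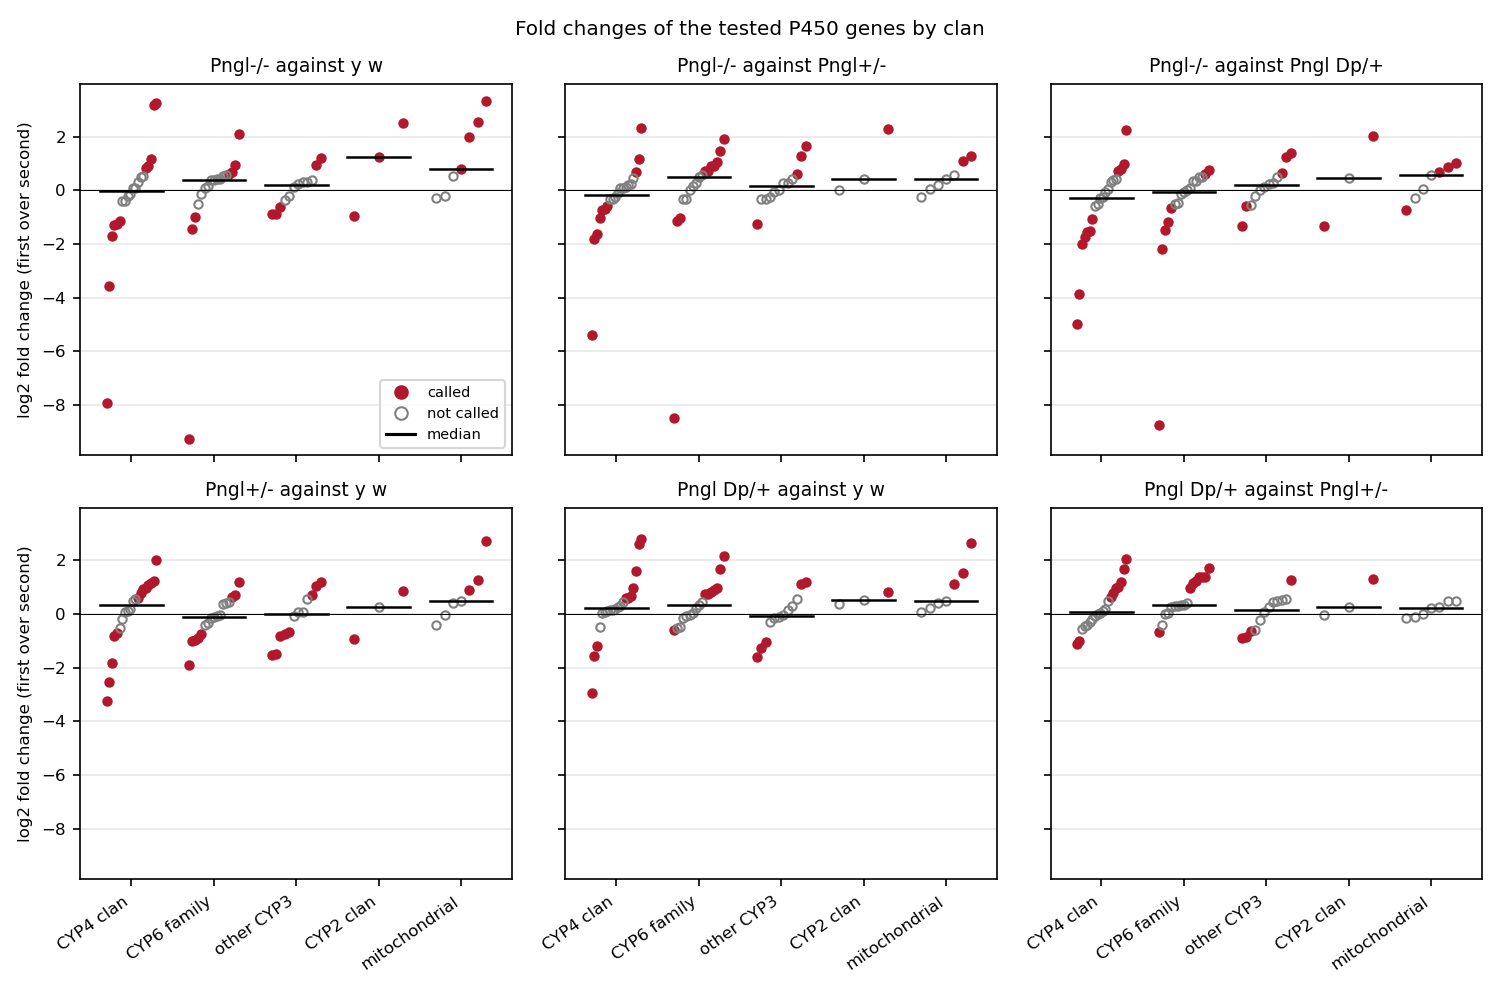
Log2 fold changes (first genotype over second) of the 59 tested P450 genes in the 6 comparisons, by clan. Each point is a gene, filled where called, and lines are clan medians. Calls lie on both sides of 0 in the CYP4, CYP6 and other CYP3-clan families. In Pngl-/-, no mitochondrial gene fell against y w (beside 24.4% of all tested genes) or Pngl+/- (beside 13.1%). Against Pngl Dp/+ 1 fell (beside 22.2%).

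By clan, the CYP4 clan had 5 rises and 6 falls of 20 in Pngl-/- against y w, 3 and 7 against Pngl+/-, and 4 and 7 against Pngl Dp/+. Its median log2 fold changes were -0.03, -0.16 and -0.27 in the same order. The CYP6 family had 4 rises and 3 falls of 17 against y w, 7 and 3 against Pngl+/-, and 2 and 5 against Pngl Dp/+, with medians of 0.40, 0.52 and -0.07. The other CYP3-clan families had 2 rises and 3 falls of 12 against y w, 3 and 1 against Pngl+/-, and 3 and 2 against Pngl Dp/+, with medians of 0.19, 0.15 and 0.19. The mitochondrial clan had 4 rises and no fall of 7 against y w, 2 rises and no fall against Pngl+/-, and 3 rises and 1 fall against Pngl Dp/+, with medians of 0.80, 0.41 and 0.57. The medians of all tested genes were -0.01, -0.05 and -0.02. Of all tested genes, 17.9% rose and 24.4% fell against y w, 7.58% and 13.1% against Pngl+/-, and 12.1% and 22.2% against Pngl Dp/+.

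In Pngl-/- against all 3 controls, 4 members rose, Cyp12d1-d, Cyp12d1-p, Cyp305a1 and Cyp4d14, which is 6.78% of the tested members beside 4.03% of all tested genes. Without composition normalization 3 rose, as Cyp12d1-p was lost. A further 6 members fell, Cyp313a3, Cyp313b1, Cyp4e3, Cyp4p2, Cyp6a17 and Cyp6d2, 10.2% beside 8.51%. Of these, Cyp313a3 reached the limit for testing through Pngl Dp/+ alone and Cyp313b1 through Pngl Dp/+ and y w. Cyp4e3, Cyp4p2 and Cyp6a17 reached it through the 3 controls. The falls of these members against those genotypes were thus favoured by the filter. Among the rises, Cyp305a1 reached the limit through Pngl-/- and Pngl Dp/+, so that its rises against y w and Pngl+/- were favoured too. Cyp6a23 and Cyp9h1 were higher than in 1 control and lower than in another (3.39% beside 1.81%), and 13 members were called against no control (22.0% beside 48.5%).

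**Figure D3:**
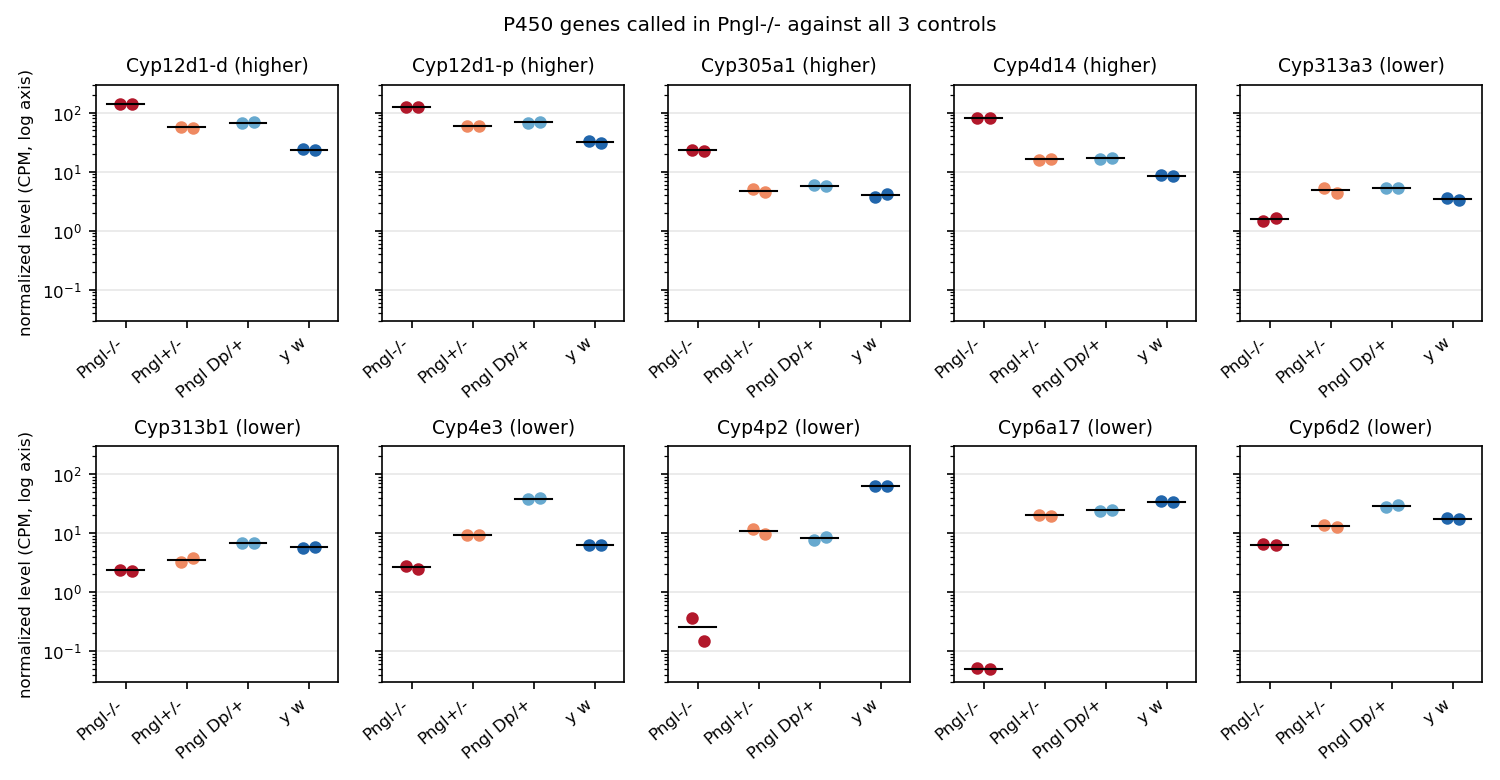
Normalized level in CPM (log axis) of the 10 P450 genes called in the same direction in Pngl-/- against all 3 controls. Points are libraries and lines genotype means (n = 2). In every panel both Pngl-/- points lie outside the range of the 6 control libraries, which the choice of genes by calls on these libraries favours. They lie furthest out for Cyp6a17 (0.05 CPM in both) and Cyp4p2 (0.36 and 0.15 CPM).

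All 7 tested genes of the mitochondrial clan belong to the CYP12 family. Cyp12d1-d and Cyp12d1-p are adjacent copies of a gene linked to DDT resistance and induced by foreign compounds. Cyp12d1-d had 138 and 139.7 CPM in Pngl-/-, 58.0 and 55.5 in Pngl+/-, 66.0 and 69.3 in Pngl Dp/+ and 24.0 and 23.3 in y w. Both Pngl-/- libraries were above all controls, and both y w libraries below the others. Cyp12d1-d in Pngl-/- had a log2 fold change of 2.56 against y w (SE 0.05, adjusted p = 5.64e-16), 1.29 against Pngl+/- (SE 0.04, adjusted p = 1.28e-12) and 1.04 against Pngl Dp/+ (SE 0.04, adjusted p = 6.01e-12). Cyp12d1-p had 125 and 126 CPM in Pngl-/-, 59.1 and 59.7 in Pngl+/-, 67.1 and 70.4 in Pngl Dp/+ and 32.6 and 31.1 in y w. For Cyp12d1-p, the log2 fold change in Pngl-/- was 1.98 against y w (SE 0.04, adjusted p = 5.87e-15), 1.08 against Pngl+/- (SE 0.04, adjusted p = 8.16e-12) and 0.87 against Pngl Dp/+ (SE 0.04, adjusted p = 4.58e-11). Without composition normalization the call of Cyp12d1-p against Pngl Dp/+ was lost, at 0.53. The copies are near-identical, and how reads with several alignments were counted is not given in the sources used here, so the split between them is uncertain. Together they had 264 and 266 CPM in Pngl-/-, 117 and 115.2 in Pngl+/-, 133 and 140 in Pngl Dp/+ and 56.6 and 54.4 in y w, in the same order of genotypes.

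Cyp12c1 was set apart mainly by its low level in y w. Cyp12c1 had 92.7 and 93.9 CPM in Pngl-/-, 61.9 and 63.3 in Pngl+/-, 57.1 and 59.3 in Pngl Dp/+ and 9.83 and 8.94 in y w. In Pngl-/-, Cyp12c1 had a log2 fold change of 3.32 against y w (SE 0.06, adjusted p = 3.31e-16), 0.58 against Pngl+/- (SE 0.05, adjusted p = 4.46e-08, not called) and 0.68 against Pngl Dp/+ (SE 0.05, adjusted p = 2.86e-09). The value against Pngl+/- was just under the fold change of 1.5, and the call was gained under DESeq2 and when either library of y w or Pngl Dp/+, replicate 2 of Pngl+/- or replicate 1 of Pngl-/- was left out, with a range of 0.56 to 0.62 over all libraries left out in turn. Its call against Pngl Dp/+ was lost without composition normalization, at 0.34. Against y w it also rose in Pngl+/-, with a log2 fold change of 2.74, and in Pngl Dp/+, with 2.64. Cyp12a4, linked to resistance to the growth regulator lufenuron, was the most abundant mitochondrial P450. Cyp12a4 had 374 and 382 CPM in Pngl-/-, 288 and 282 in Pngl+/-, 254 in both libraries of Pngl Dp/+ and 217 and 216 in y w. The log2 fold change of Cyp12a4 in Pngl-/- was 0.80 against y w (SE 0.03, adjusted p = 1.17e-11), 0.41 against Pngl+/- (SE 0.03, adjusted p = 8.14e-08, not called) and 0.57 against Pngl Dp/+ (SE 0.03, adjusted p = 7.75e-10, not called). It rose against y w, a call that was lost without composition normalization (0.42), and missed the fold change of 1.5 against the other controls. Against Pngl Dp/+ the call was gained when either library of y w or Pngl Dp/+ or replicate 1 of Pngl-/- was left out, with a range of 0.56 to 0.62. Its neighbour Cyp12a5 was called in no comparison, with 32.1 CPM in both libraries of Pngl-/-, 29.1 and 26.7 in Pngl+/-, 36.7 and 40.6 in Pngl Dp/+ and 37.1 and 37.2 in y w. Cyp12b2 fell against Pngl Dp/+ (9.16 and 7.70 CPM in Pngl-/-, 11.01 and 8.69 in Pngl+/-, 13.0 and 14.4 in Pngl Dp/+ and 10.2 and 10.3 in y w), and Cyp301a1 and Cyp49a1 were below the limit for testing.

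Of the 6 redox partner genes, which pass electrons to P450s, all were tested. None fell in Pngl-/- against y w (beside 24.4% of all tested genes), Pngl+/- (beside 13.1%) or Pngl Dp/+ (beside 22.2%). Against y w 2 rose, beside 17.9% of all tested genes, and 1 each rose against Pngl+/- (beside 7.58%) and Pngl Dp/+ (beside 12.1%). dare, the ferredoxin reductase, had 25.4 and 27.8 CPM in Pngl-/-, 17.9 and 18.8 in Pngl+/-, 14.3 and 16.3 in Pngl Dp/+ and 14.7 and 12.9 in y w, and rose on the log2 scale by 0.95 over y w and by 0.79 over Pngl Dp/+, whereas 0.54 over Pngl+/- was not called. Fdx1, a ferredoxin, was called against Pngl+/- at a log2 fold change of 0.77. Cyt-b5, the cytochrome that assists microsomal P450s, had 307 and 296 CPM in Pngl-/-, 259.9 and 251 in Pngl+/-, 201 and 209 in Pngl Dp/+ and 176 and 173 in y w and was called against y w at 0.79. Cpr, the reductase of the microsomal enzymes, had 172 and 183 CPM in Pngl-/-, 187 and 194 in Pngl+/-, 185 and 182 in Pngl Dp/+ and 150.1 and 151 in y w and was called in no comparison. Of 8 tested genes of haem synthesis and breakdown, 2 rose in Pngl-/- against y w, beside 17.9% of all tested genes. These were Pbgs and Ppox, enzymes of haem synthesis, and Pbgs rose in Pngl+/- against y w as well.

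In the CYP2 clan, Cyp305a1 stood out. Cyp305a1 had 23.6 and 22.5 CPM in Pngl-/-, 5.06 and 4.45 in Pngl+/-, 5.83 and 5.61 in Pngl Dp/+ and 3.78 and 4.18 in y w. Both Pngl-/- libraries lay above all 6 control libraries. Cyp305a1 in Pngl-/- had a log2 fold change of 2.53 against y w (SE 0.10, adjusted p = 2.32e-12), 2.27 against Pngl+/- (SE 0.10, adjusted p = 2.55e-11) and 2.01 against Pngl Dp/+ (SE 0.09, adjusted p = 1.74e-11). Cyp304a1 was highest in Pngl-/- and lowest in y w. Cyp304a1 had 41.6 and 40.4 CPM in Pngl-/-, 29.1 and 32.7 in Pngl+/-, 29.0 and 31.2 in Pngl Dp/+ and 18.1 and 16.4 in y w. For Cyp304a1, the log2 fold change in Pngl-/- was 1.25 against y w (SE 0.08, adjusted p = 5.51e-10), 0.41 against Pngl+/- (SE 0.07, adjusted p = 1.91e-04, not called) and 0.44 against Pngl Dp/+ (SE 0.07, adjusted p = 4.31e-05, not called). Cyp18a1, the enzyme that inactivates ecdysteroid moulting hormones, followed another pattern. Cyp18a1 had 3.33 and 3.43 CPM in Pngl-/-, 3.59 and 3.17 in Pngl+/-, 8.93 and 8.13 in Pngl Dp/+ and 6.64 and 6.34 in y w. Pngl-/- and Pngl+/- overlapped and lay below Pngl Dp/+ and y w, and it fell in Pngl-/- against y w and Pngl Dp/+ and in Pngl+/- against y w. Both genotypes with little Cyp18a1 also had the low muscle marker sums given above, whose part in the result was not tested.

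Of the 6 ecdysteroid synthesis P450 genes with other symbols, known from the prothoracic gland and peripheral tissues, 4 were tested. In Pngl-/-, 3 fell against Pngl+/- (beside 13.1% of all tested genes) and 1 against Pngl Dp/+ (beside 22.2%). Against y w none was called (beside 42.3%). spok had 7.19 and 5.61 CPM in Pngl-/-, 16.5 and 14.9 in Pngl+/-, 10.1 and 12.4 in Pngl Dp/+ and 8.36 and 8.94 in y w, and its log2 fold change was -1.30 against Pngl+/- and -0.84 against Pngl Dp/+. The summed level of phtm, dib, sad and spok, which stand for the ring gland, was 19.4 to 22.5 CPM in Pngl-/-, 40.0 to 40.3 in Pngl+/-, 29.2 to 30.2 in Pngl Dp/+ and 24.5 to 24.9 in y w. EcR, the ecdysone receptor, fell in Pngl-/- against all 3 controls, with 13.0 and 16.0 CPM in Pngl-/-, 23.8 and 24.4 in Pngl+/-, 39.9 and 40.6 in Pngl Dp/+ and 33.6 and 36.3 in y w.

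In the CYP4 clan, neighbouring genes of the Cyp4p cluster differed in opposite directions. Cyp4p2, Cyp4p1 and Cyp4p3 lie in that order on the plus strand of dm6 chromosome arm 2R, between 9237512 and 9244410. Cyp4p2 had 0.36 and 0.15 CPM in Pngl-/-, 11.96 and 9.60 in Pngl+/-, 7.74 and 8.67 in Pngl Dp/+ and 62.4 and 64.0 in y w. Both Pngl-/- libraries, with 7 and 3 counts, lay far below the controls, and y w lay above Pngl+/- and Pngl Dp/+. In Pngl-/-, Cyp4p2 had a log2 fold change of -7.93 against y w (SE 0.16, adjusted p = 2.20e-15), -5.38 against Pngl+/- (SE 0.25, adjusted p = 5.49e-11) and -4.99 against Pngl Dp/+ (SE 0.26, adjusted p = 1.23e-10). Without replicate 1 of Pngl-/- these values were -8.68, -6.13 and -5.74, and without replicate 2 of Pngl-/- -7.42, -4.87 and -4.48, in the same order of controls. The next gene, Cyp4p1, had its lowest level in y w. Cyp4p1 had 101 and 99.7 CPM in Pngl-/-, 44.8 and 44.3 in Pngl+/-, 77.5 and 77.1 in Pngl Dp/+ and 11.3 and 10.99 in y w. The log2 fold change of Cyp4p1 in Pngl-/- was 3.17 against y w (SE 0.05, adjusted p = 1.18e-16), 1.17 against Pngl+/- (SE 0.04, adjusted p = 3.52e-12) and 0.38 against Pngl Dp/+ (SE 0.04, adjusted p = 5.60e-07, not called). Cyp4p3 had 8.38 and 7.25 CPM in Pngl-/-, 7.85 and 6.55 in Pngl+/-, 11.9 and 10.5 in Pngl Dp/+ and 25.1 and 25.7 in y w. Cyp4p3 fell against y w in Pngl-/- (log2 fold change -1.70), Pngl+/- (-1.81) and Pngl Dp/+ (-1.20), and was not called in Pngl-/- against the other controls. Its call against Pngl Dp/+ was gained without composition normalization (-0.85). The same call was gained when replicate 1 of Pngl-/- was left out (-0.61, over a range of -0.61 to -0.38). Thus in y w, Cyp4p2 was the most abundant of the 3 per exon length, at 35.6 RPKM against 6.64 RPKM for Cyp4p1, and in Pngl-/- it was the least, at 0.14 RPKM against 59.8 RPKM for Cyp4p1.

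The X-linked gene Cyp4d14, on the minus strand between 2173415 and 2175315, rose furthest of the CYP4 clan. Cyp4d14 had 79.9 and 80.7 CPM in Pngl-/-, 15.9 and 16.5 in Pngl+/-, 16.5 and 16.99 in Pngl Dp/+ and 8.65 and 8.29 in y w. Cyp4d14 in Pngl-/- had a log2 fold change of 3.25 against y w (SE 0.07, adjusted p = 1.83e-15), 2.31 against Pngl+/- (SE 0.06, adjusted p = 9.12e-14) and 2.26 against Pngl Dp/+ (SE 0.06, adjusted p = 4.19e-14). Both Pngl-/- libraries lay far above the 6 control libraries, and y w lay below the other controls. Its exons overlap those of the antisense gene asRNA:CR45479 by 1629 bases, and whether the counting used strand is not given in the sources used here. Its neighbours moved less: Cyp4d2 rose against y w and Pngl Dp/+ (43.6 and 45.4 CPM in Pngl-/-, 37.5 and 40.4 in Pngl+/-, 27.7 and 25.8 in Pngl Dp/+ and 19.8 and 19.6 in y w), and Cyp4ae1 rose against Pngl+/- and Pngl Dp/+ (9.89 and 9.29 CPM in Pngl-/-, 6.38 and 5.47 in Pngl+/-, 5.17 and 4.68 in Pngl Dp/+ and 6.89 and 6.70 in y w). Both overlap an antisense gene too.

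Cyp4e3, which supports permethrin tolerance in Malpighian tubules, fell against all 3 controls, which differed among themselves. Cyp4e3 had 2.81 and 2.48 CPM in Pngl-/-, 9.31 and 9.23 in Pngl+/-, 37.4 and 39.2 in Pngl Dp/+ and 6.34 and 6.31 in y w. For Cyp4e3, the log2 fold change in Pngl-/- was -1.26 against y w (SE 0.13, adjusted p = 2.79e-07), -1.81 against Pngl+/- (SE 0.12, adjusted p = 5.76e-09) and -3.86 against Pngl Dp/+ (SE 0.09, adjusted p = 1.10e-14). In Pngl Dp/+ it was far above both other controls, by 2.60 over y w and by 2.05 over Pngl+/- on the log2 scale. Cyp4g1, which makes cuticular hydrocarbons in oenocytes, was highest in y w. Cyp4g1 had 3.59 and 3.97 CPM in Pngl-/-, 4.63 and 4.94 in Pngl+/-, 15.1 and 15.3 in Pngl Dp/+ and 45.6 and 45.01 in y w. In Pngl-/-, Cyp4g1 had a log2 fold change of -3.58 against y w (SE 0.08, adjusted p = 4.71e-15), -0.33 against Pngl+/- (SE 0.13, adjusted p = 0.0558, not called) and -2.01 against Pngl Dp/+ (SE 0.09, adjusted p = 3.76e-11). The other controls lay apart as well, since it fell against y w in Pngl+/- (-3.24) and in Pngl Dp/+ (-1.57).

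The family-313 genes on arm 3R were low. Cyp313a3 had 1.46 and 1.64 CPM in Pngl-/-, 5.25 and 4.40 in Pngl+/-, 5.22 and 5.19 in Pngl Dp/+ and 3.57 and 3.35 in y w. The log2 fold change of Cyp313a3 in Pngl-/- was -1.15 against y w (SE 0.19, adjusted p = 4.13e-05), -1.64 against Pngl+/- (SE 0.18, adjusted p = 1.66e-06) and -1.74 against Pngl Dp/+ (SE 0.17, adjusted p = 2.71e-07). Cyp313b1 had 2.40 and 2.29 CPM in Pngl-/-, 3.26 and 3.86 in Pngl+/-, 6.90 and 6.92 in Pngl Dp/+ and 5.67 and 5.87 in y w. Cyp313b1 in Pngl-/- had a log2 fold change of -1.30 against y w (SE 0.15, adjusted p = 1.17e-06), -0.60 against Pngl+/- (SE 0.17, adjusted p = 0.00747) and -1.56 against Pngl Dp/+ (SE 0.15, adjusted p = 1.30e-07). The call of Cyp313b1 against Pngl+/- was just past the fold change of 1.5. It was lost without either y w library, without either Pngl Dp/+ library, without replicate 2 of Pngl+/- and without replicate 2 of Pngl-/-, and its log2 fold change ran between -0.72 and -0.48 over all libraries left out in turn. Cyp313a3 did not reach the limit for testing when either Pngl Dp/+ library was left out. Cyp313a5 fell against Pngl+/- and Pngl Dp/+ only, with 2.86 and 2.98 CPM in Pngl-/-, 6.05 and 5.96 in Pngl+/-, 7.78 and 8.83 in Pngl Dp/+ and 3.11 and 2.38 in y w. Cyp311a1, which maintains lipids and microvilli of the anterior midgut, was higher in Pngl-/- and Pngl+/- than in the other genotypes, with 19.99 and 20.2 CPM in Pngl-/-, 24.0 and 23.1 in Pngl+/-, 11.5 and 11.9 in Pngl Dp/+ and 9.62 and 12.6 in y w, and rose in Pngl-/- against y w and Pngl Dp/+.

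Among the other abundant CYP4 genes, Cyp4d1, the most abundant of the clan per exon length, had 144 and 135 CPM in Pngl-/-, 149.5 and 148 in Pngl+/-, 146 and 148 in Pngl Dp/+ and 133 and 130.0 in y w, and its largest log2 fold change in any of the 6 comparisons was 0.18. Cyp4ad1 fell against Pngl+/- only, in which it was highest. Cyp4ad1 had 63.4 and 61.7 CPM in Pngl-/-, 101 and 108 in Pngl+/-, 77.6 and 76.0 in Pngl Dp/+ and 68.3 and 69.4 in y w. Cyp4s3 was highest in Pngl+/- as well, with 42.1 and 40.0 CPM in Pngl-/-, 66.4 and 66.9 in Pngl+/-, 29.8 and 31.2 in Pngl Dp/+ and 28.3 and 27.8 in y w, and fell against it.

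**Figure D4:**
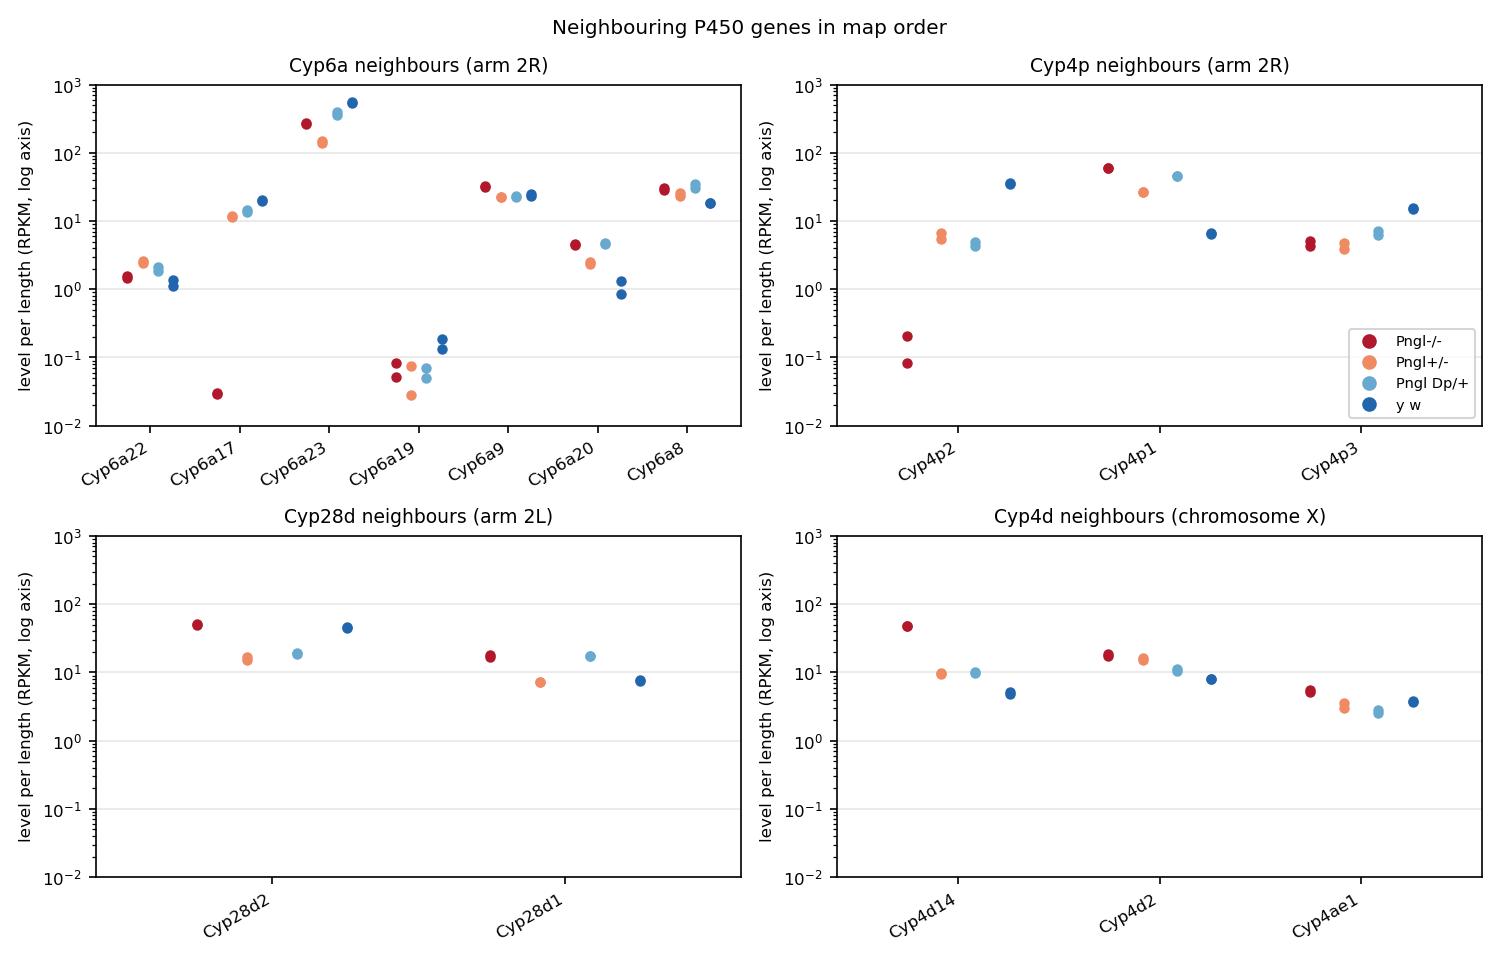
Level per exon length (RPKM, log axis) of neighbouring P450 genes in map order, each point a library. In the Cyp4p group Cyp4p2 and Cyp4p1 run in opposite order over the genotypes (0.14 and 59.8 RPKM in Pngl-/-, 35.6 and 6.64 RPKM in y w), and in the Cyp6a group Cyp6a17 has 0.029 RPKM in Pngl-/- beside 271 RPKM for the next gene, Cyp6a23.

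In the CYP6 family, Cyp6a17 was all but undetected in Pngl-/-. Cyp6a17 is known for its part in temperature preference. It lies on the plus strand of arm 2R from 14873953 to 14875739, 90 bases before Cyp6a23, in a group of 7 members. Cyp6a17 had 0.052 and 0.050 CPM in Pngl-/-, 20.7 and 19.6 in Pngl+/-, 23.8 and 24.8 in Pngl Dp/+ and 34.6 and 33.9 in y w. Each Pngl-/- library had 1 count. With 3 counts per library taken as the limit of detection, Cyp6a17 in Pngl-/- was at least 129-fold lower against Pngl+/-, at least 155-fold lower against Pngl Dp/+ and at least 219-fold lower against y w. Cyp6a23 had 487 and 468 CPM in Pngl-/-, 263 and 244 in Pngl+/-, 623 and 686 in Pngl Dp/+ and 966 and 931 in y w. For Cyp6a23, the log2 fold change in Pngl-/- was -0.99 against y w (SE 0.05, adjusted p = 5.64e-11), 0.91 against Pngl+/- (SE 0.05, adjusted p = 3.98e-10) and -0.46 against Pngl Dp/+ (SE 0.05, adjusted p = 6.22e-07, not called). Cyp6a23, its neighbour, thus fell against y w and rose against Pngl+/-, with each genotype apart from the others. The genes are near copies, so that reads shared between them may have been counted for either. Farther along the group, Cyp6a9 was called in no comparison (61.9 and 63.8 CPM in Pngl-/-, 44.3 and 43.6 in Pngl+/-, 44.9 and 45.00 in Pngl Dp/+ and 48.2 and 45.5 in y w). Cyp6a20, a gene of male aggression, rose against y w and Pngl+/- and was close to Pngl Dp/+ (8.33 and 7.90 CPM in Pngl-/-, 4.49 and 4.24 in Pngl+/-, 8.66 and 8.35 in Pngl Dp/+ and 2.35 and 1.51 in y w), and Cyp6a8, a lauric acid hydroxylase, rose against y w only (51.2 and 55.0 CPM in Pngl-/-, 46.5 and 41.5 in Pngl+/-, 55.0 and 61.4 in Pngl Dp/+ and 33.2 and 32.3 in y w).

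Over the genome, 43 members lie within 5000 bases of another, in 16 groups. A rise of 1 member with a fall of another in the same group occurred in 2 groups in Pngl-/- against y w, in 2 against Pngl+/- and in 0 against Pngl Dp/+. Groups with only 1 tested member could not show this. The share among neighbouring genes of other kinds was not counted, so these counts have no background beside them. In the Cyp28d group, both members rose in Pngl-/- against Pngl+/-, whereas only Cyp28d1 rose against y w and only Cyp28d2 against Pngl Dp/+. Cyp28d2 was low in Pngl+/- and Pngl Dp/+, and higher in Pngl-/- and y w. Cyp28d2 had 83.4 and 84.5 CPM in Pngl-/-, 28.1 and 25.3 in Pngl+/-, 31.3 and 32.1 in Pngl Dp/+ and 77.6 and 75.7 in y w. In Pngl-/-, Cyp28d2 had a log2 fold change of 0.13 against y w (SE 0.05, adjusted p = 0.0199, not called), 1.65 against Pngl+/- (SE 0.05, adjusted p = 8.81e-13) and 1.403 against Pngl Dp/+ (SE 0.05, adjusted p = 1.71e-12). Cyp28d1, linked to nicotine resistance of larvae, was instead high in Pngl-/- and Pngl Dp/+, with 27.3 and 29.2 CPM in Pngl-/-, 11.7 and 11.5 in Pngl+/-, 28.2 and 28.3 in Pngl Dp/+ and 12.6 and 12.1 in y w.

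Cyp6a2 and Cyp6g1, known from insecticide metabolism, had their lowest levels in the balancer genotype. Cyp6a2, a DDT-metabolizing enzyme, was lowest in Pngl+/-. Cyp6a2 had 235 and 233 CPM in Pngl-/-, 60.8 and 64.8 in Pngl+/-, 166 and 165 in Pngl Dp/+ and 122 and 121 in y w. The log2 fold change of Cyp6a2 in Pngl-/- was 0.94 against y w (SE 0.04, adjusted p = 3.11e-12), 1.90 against Pngl+/- (SE 0.04, adjusted p = 3.88e-15) and 0.50 against Pngl Dp/+ (SE 0.04, adjusted p = 5.88e-09, not called). The call of Cyp6a2 against y w was lost without composition normalization, at 0.55. Cyp6g1, whose overexpression gives resistance to DDT and neonicotinoids, had the same low point. Cyp6g1 had 46.2 and 40.9 CPM in Pngl-/-, 15.9 and 15.8 in Pngl+/-, 40.7 and 40.9 in Pngl Dp/+ and 30.1 and 34.0 in y w. Cyp6g1 in Pngl-/- had a log2 fold change of 0.44 against y w (SE 0.07, adjusted p = 4.30e-05, not called), 1.46 against Pngl+/- (SE 0.08, adjusted p = 4.18e-10) and 0.09 against Pngl Dp/+ (SE 0.07, adjusted p = 0.238, not called). In Pngl-/- against Pngl+/-, 57.6% of the 33 tested members on chromosome 2, which holds Pngl and the balancer, were called and 30.8% of the 26 elsewhere, beside 23.3% and 19.1% of all tested genes there. Against y w the members' shares were 51.5% and 50.0%, beside 43.5% and 41.4% of all tested genes, and against Pngl Dp/+ 42.4% and 57.7%, beside 34.2% and 34.1%. In the other comparisons with the balancer genotype, the members' shares on chromosome 2 and elsewhere lay closer together. In Pngl+/- against y w they were 60.6% and 53.8%. Of all tested genes, 30.7% were called elsewhere in that comparison and a slightly lower share on chromosome 2. In Pngl Dp/+ against Pngl+/- the members' shares were 36.4% and 38.5%, beside 20.5% and 22.4% of all tested genes. The part of the balancer in these shares was not tested.

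Cyp6d2 fell against all 3 controls. Cyp6d2 had 6.61 and 6.21 CPM in Pngl-/-, 13.6 and 12.9 in Pngl+/-, 28.3 and 30.02 in Pngl Dp/+ and 17.9 and 17.4 in y w. For Cyp6d2, the log2 fold change in Pngl-/- was -1.46 against y w (SE 0.09, adjusted p = 3.85e-10), -1.05 against Pngl+/- (SE 0.09, adjusted p = 1.43e-07) and -2.19 against Pngl Dp/+ (SE 0.08, adjusted p = 1.58e-12). It shares 897 exonic bases with nsr on the opposite strand. Cyp6d5 was set apart by Pngl Dp/+. Cyp6d5 had 67.1 and 65.4 CPM in Pngl-/-, 45.8 and 43.8 in Pngl+/-, 145 and 152 in Pngl Dp/+ and 47.5 and 45.1 in y w. In Pngl-/-, Cyp6d5 had a log2 fold change of 0.52 against y w (SE 0.05, adjusted p = 5.99e-08, not called), 0.56 against Pngl+/- (SE 0.05, adjusted p = 7.54e-08, not called) and -1.16 against Pngl Dp/+ (SE 0.04, adjusted p = 2.67e-12). Both Pngl Dp/+ libraries lay above the other 6, and Pngl-/- fell against them. A rise against Pngl+/- was called when either library of y w or Pngl Dp/+ or replicate 1 of Pngl+/- was left out (range of 0.53 to 0.61), and against y w without replicate 1 of y w (range of 0.50 to 0.59). Cyp6d4 was highest in Pngl Dp/+ as well (56.7 and 54.8 CPM in Pngl-/-, 35.1 and 32.0 in Pngl+/-, 75.9 and 82.1 in Pngl Dp/+ and 43.1 and 41.4 in y w), and Cyp6w1 was low in Pngl-/- and fell against Pngl+/- and Pngl Dp/+ (3.91 and 4.32 CPM in Pngl-/-, 9.36 and 8.80 in Pngl+/-, 11.5 and 11.7 in Pngl Dp/+ and 5.63 and 6.13 in y w).

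**Figure D5:**
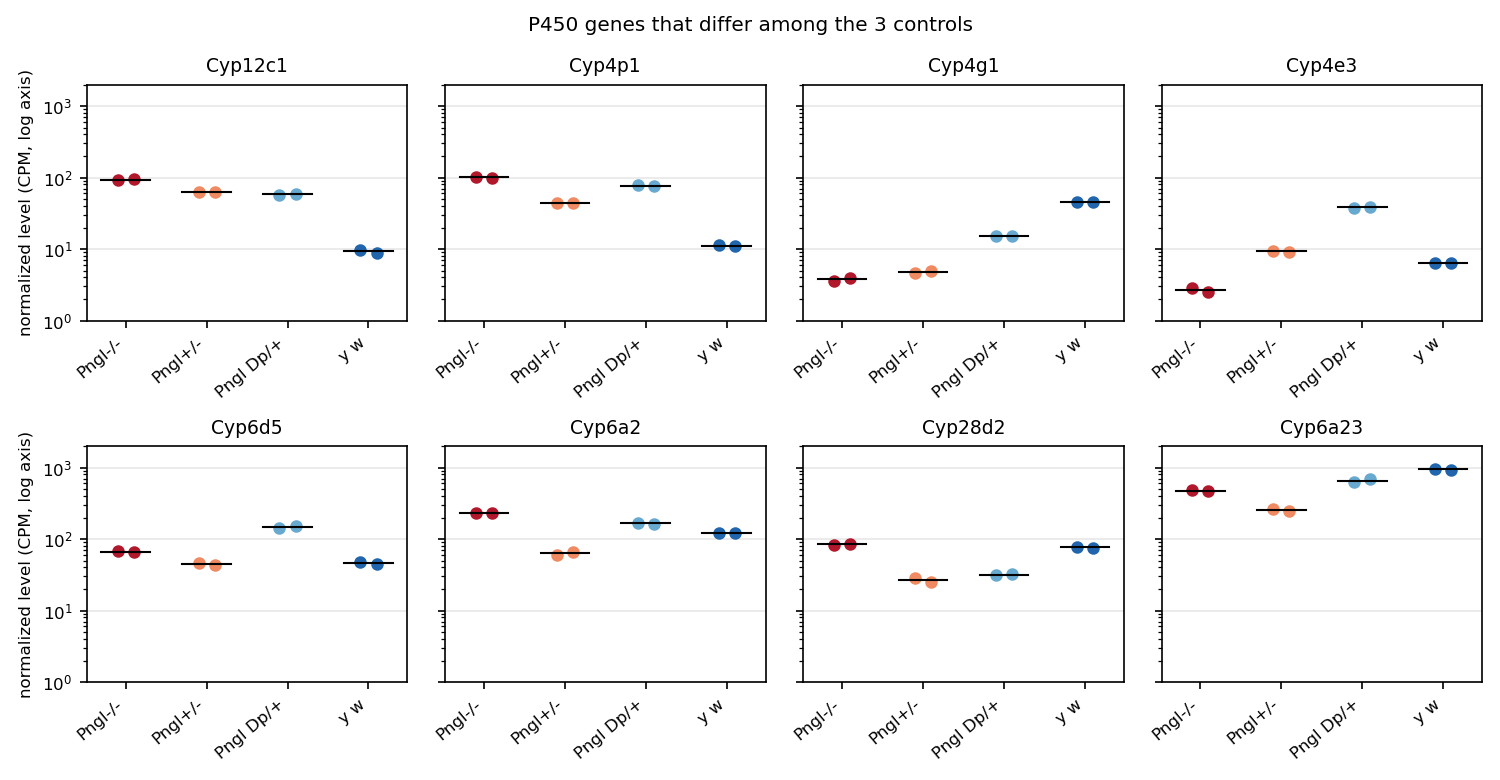
Normalized level in CPM (log axis) of 8 P450 genes that differ among the controls. Points are libraries and lines genotype means (n = 2). Cyp12c1 and Cyp4p1 are lowest in y w, Cyp4g1 highest in y w, Cyp4e3 and Cyp6d5 highest in Pngl Dp/+, Cyp6a2 and Cyp6a23 lowest in Pngl+/-, and Cyp28d2 is low in Pngl+/- and Pngl Dp/+.

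In the other CYP3-clan families, the abundant CYP9 genes differed modestly. Cyp9b2 had 275 CPM in both libraries of Pngl-/-, 292 and 288 in Pngl+/-, 409 and 426 in Pngl Dp/+ and 511 and 504 in y w. It fell in Pngl-/- against y w (log2 fold change -0.88) and against Pngl Dp/+ (-0.60), and in Pngl+/- against y w (-0.81). The call against Pngl Dp/+ was lost when either library of y w or Pngl Dp/+ was left out, with a range of -0.60 to -0.53. Its neighbour Cyp9b1 was lower in Pngl-/- and y w than in Pngl+/- and Pngl Dp/+. Cyp9b1 had 11.3 and 12.8 CPM in Pngl-/-, 29.3 and 27.7 in Pngl+/-, 29.8 and 29.9 in Pngl Dp/+ and 14.3 and 13.4 in y w. The log2 fold change of Cyp9b1 in Pngl-/- was -0.20 against y w (SE 0.08, adjusted p = 0.0333, not called), -1.24 against Pngl+/- (SE 0.07, adjusted p = 1.21e-09) and -1.31 against Pngl Dp/+ (SE 0.07, adjusted p = 2.34e-10). Cyp9f2 had 428 and 425 CPM in Pngl-/-, 553 and 519 in Pngl+/-, 346 and 370.3 in Pngl Dp/+ and 331 and 322 in y w. Cyp9f2 was called only in Pngl+/- against y w, where it rose by 0.71 on the log2 scale. Cyp9f3 rose in Pngl-/- against y w and Pngl Dp/+, with 97.6 and 96.4 CPM in Pngl-/-, 118 and 112 in Pngl+/-, 63.4 and 61.5 in Pngl Dp/+ and 51.9 and 48.9 in y w. Cyp28a5 fell in Pngl-/- and in Pngl+/- against y w, with 62.4 and 60.4 CPM in Pngl-/-, 61.3 and 59.1 in Pngl+/-, 89.4 and 89.1 in Pngl Dp/+ and 95.3 and 95.5 in y w. Cyp9b2 and Cyp28a5 divide the genotypes as the muscle marker sums do, and the part of these in the result was not tested. Cyp309a1 was lowest in Pngl Dp/+. Cyp309a1 had 32.8 and 31.4 CPM in Pngl-/-, 23.6 and 24.7 in Pngl+/-, 12.6 and 14.1 in Pngl Dp/+ and 41.2 and 40.7 in y w. Cyp309a1 in Pngl-/- had a log2 fold change of -0.35 against y w (SE 0.06, adjusted p = 1.18e-04, not called), 0.41 against Pngl+/- (SE 0.07, adjusted p = 1.08e-04, not called) and 1.26 against Pngl Dp/+ (SE 0.07, adjusted p = 3.40e-10). Cyp9h1 was highest in y w and lowest in Pngl+/-, with 12.6 and 13.1 CPM in Pngl-/-, 8.70 and 8.26 in Pngl+/-, 11.5 and 11.9 in Pngl Dp/+ and 25.2 and 22.9 in y w.

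Among 9 tested genes of transcription factors known to act on P450 genes and of their partners, no common direction of mRNA was seen. The list mixes activators with an inhibitor, and RNA counts do not show the level or activity of these proteins. In Pngl-/-, 1 rose and 2 fell against y w (beside 17.9% and 24.4% of all tested genes). Against Pngl+/-, 1 rose and 1 fell (beside 7.58% and 13.1%), and against Pngl Dp/+, 1 rose and 3 fell (beside 12.1% and 22.2%). cnc, the fly Nrf2 and an activator of detoxification genes, had 101 and 102 CPM in Pngl-/-, 93.8 in both libraries of Pngl+/-, 139 and 142 in Pngl Dp/+ and 126 and 120.4 in y w and was not called in any comparison. Keap1, its inhibitor, had 15.8 and 14.9 CPM in Pngl-/-, 6.90 and 7.83 in Pngl+/-, 9.19 and 8.22 in Pngl Dp/+ and 9.66 and 11.1 in y w and rose against Pngl+/- and Pngl Dp/+. Hr96, a nuclear receptor of the response to foreign compounds, had 30.2 and 28.9 CPM in Pngl-/-, 18.9 and 21.2 in Pngl+/-, 19.7 and 20.1 in Pngl Dp/+ and 14.6 and 15.2 in y w and rose against y w. tgo, the partner of the aryl hydrocarbon receptor, had 4.53 and 4.32 CPM in Pngl-/-, 6.85 and 5.10 in Pngl+/-, 9.55 and 9.27 in Pngl Dp/+ and 9.83 and 10.8 in y w and fell against y w and Pngl Dp/+.

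Finally, 9 members were called in none of the 6 comparisons, which share libraries (15.3% of the tested members beside 43.8% of all tested genes): Cyp12a5, Cyp12e1, Cyp317a1, Cyp4ac1, Cyp4d1, Cyp4e2, Cyp6a9, Cyp6v1 and Cyp9c1. Cyp6v1 was the closest to level, with 17.03 and 15.4 CPM in Pngl-/-, 16.4 and 15.6 in Pngl+/-, 16.3 and 15.7 in Pngl Dp/+ and 17.8 and 17.5 in y w.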

How the data were processed

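Polyadenylated RNA of pooled midguts was sequenced from stranded, paired-end libraries. Reads were trimmed by the authors with cutadapt (1.4 per the labels) and aligned to dm6 with STAR 2.5.3, and the deposited values are raw counts, totalled over the collapsed exons of each FlyBase gene without normalization. The use of strand and of reads with several alignments is not given in the sources used here. Symbols, positions and exon lengths came from an Ensembl annotation of the same assembly.

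From the counts, edgeR 4.0.16 (R 4.3.3) fitted all 8 libraries with 1 mean per genotype after TMM scaling of the 7665 genes at 5 CPM or more in at least 2 libraries. Its quasi-likelihood test was adjusted by Benjamini-Hochberg over these genes, and calls needed a fold change of 1.5 and an adjusted p of 0.05. The common dispersion was 0.00194. SE are from the fit, and p-values measure the spread between libraries, which the methods call biological replicates and which differed by more than sampling noise. Where a genotype had at most 3 counts per library, the fold is a bound that covers counting error only. The scripts were tested on simulated counts.

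Named members were those called against all 3 controls, the 5 largest rises and 5 largest falls of each Pngl-/- comparison, the 2 highest by RPKM of each clan, the 3 largest changes of each control comparison, those at 3 counts or fewer, and the 2 just under the limit for testing. Other members named with values were chosen after their values were seen. The members, clans and gene lists were chosen with earlier results of these data known. Alternatives were the likelihood ratio test, DESeq2 1.42.0, other scalings and filters, fits of 2 genotypes, replicate blocks, a test against a fold change of 1.5, strict symbols and each library left out in turn. A further gene of the haem list is not reported here.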

Additional observations from a re-analysis of the deposited data

How the results depend on the processing

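The counts of called P450 genes kept within 1.5 times of the reported count under every alternative run, except the 4 genes higher in Pngl-/- than in all 3 controls. These were 8 with TMM factors from all genes, 8 with a limit of 1 CPM, 8 with no filter on low counts, and 2 with strict symbols, which leave out the Cyp12d1 copies. All 4 were among the 8 each time, and Cyp12c1, Cyp4ae1 and Cyp6a2 were among those added each time. With libraries left out in turn, the called members ranged over 30 to 32 in Pngl-/- against y w, 25 to 28 against Pngl+/-, 28 to 30 against Pngl Dp/+, 33 to 35 in Pngl+/- against y w, 24 to 28 in Pngl Dp/+ against y w and 21 to 25 in Pngl Dp/+ against Pngl+/-, and those higher or lower in Pngl-/- than in all 3 controls over 4 to 5 and 4 to 6. No value changed sign among calls. Of the recomputed values of named members, 1537 kept their call, 49 gained and 24 lost it. Leaving out composition normalization moved the median log2 fold change of all tested genes to -0.39 in Pngl-/- against y w, -0.36 against Pngl Dp/+, -0.36 in Pngl+/- against y w and 0.32 in Pngl Dp/+ against Pngl+/-. All-gene TMM factors moved it to 0.20 in Pngl-/- against y w, 0.14 against Pngl Dp/+ and 0.13 in Pngl+/- against y w. Nothing in the labels ties equal replicate numbers to a shared batch, and the deviations of equal numbers correlated at r = 0.38 between Pngl+/- and Pngl Dp/+, at -0.20 between Pngl Dp/+ and y w and between -0.068 and 0.0048 in the other 4 pairs of genotypes. With the replicate block the counts were 30, 27, 29, 34, 27 and 22, as without it, and a crossed pairing, chosen after seeing the data for the negative value, gave the same counts. The spread came from all genotypes in 1 fit, so that a genotype left with 1 library was assumed to vary like the others.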
